A study of Ammopiptanthus mongolicus with 6 samples.

Results

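Leaf RNA of plants at 24 h of drought was compared with leaf RNA of plants at 1 h of drought in Ammopiptanthus mongolicus, a desert shrub that keeps broad leaves through the winter. The comparison rests on 2 of the 6 libraries of the series, taken by their labels for treatment and time, and on every assembled transcript (unigene) in either table, 63551 of the 67955 in the series. All 6 libraries came from wild-type leaves labelled as mesophyll, extracted with Trizol. The 4 others are drought at 72 h, cold at 72 h and at 1 h, and an untreated control that carries no time. The sources used here do not give how drought was imposed, how old the plants were or whether they were pooled.

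Leaves that lose water are known to close their stomata under the hormone abscisic acid, and to raise transcripts for osmolyte synthesis, protective proteins and transport. Early responses are mostly signalling and transcription factor genes, and later ones include protection and the adjustment of growth and photosynthesis. A pair of times within one stress therefore addresses how the leaf transcriptome moves from the first hour to a full day. The files identify unigenes by assembly number alone, so no function is given to any of them and the leaf label was not checked against marker genes. Unigene sequences were not used here.

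The drought 24 h and the drought 1 h library each held about 4.3e+06 uniquely assigned reads, and the 6 libraries 4.3e+06 to 4.7e+06. Each group is 1 library, although the design text speaks of triplicates, so differences have no replicate check and p-values are not given. To be called, a unigene needed an exact 95% interval of its ratio (reads over library totals) that lay wholly beyond 2-fold. These intervals hold counting error only and compare 2 libraries, not 2 conditions, and reads counted without molecular tags may be copies of one molecule. In whole leaves, fewer cells of a type and less RNA per cell cannot be told apart. Across unigenes the 2 libraries correlated at r = 0.917 on log2(RPKM + 1), among 0.908 to 0.929 for the 10 pairs without cold 72 h. Pairs with cold 72 h lay at 0.810 to 0.830, so that library differed most from the others. These values are over 67955 unigenes that share libraries and are descriptions.

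At 24 h of drought 145 unigenes were higher than at 1 h and 308 were lower. This is 0.370% and 0.786% of the 39182 unigenes that had 10 or more reads over both libraries, the fewest that could be called against 0 reads. Lower unigenes thus outnumbered higher ones. The median fold was 4.18 among the higher and 4.67 among the lower unigenes, with counts under 3 set to 3. A fold of at least 8 was reached by 11 higher and 41 lower unigenes. The higher unigenes took 1.14% of the reads at 24 h, against 0.386% at 1 h, and the lower ones took 0.514% at 24 h and 1.76% at 1 h. With trimmed-mean (TMM) scaling factors 173 were higher and 278 lower. With an assumed coefficient of variation of 0.4 between plants, 12 higher and 42 lower unigenes were left.

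Beyond these, 1041 unigenes had a ratio of at least 2 and 1528 a ratio of at most the inverse of 2 with an interval that excluded 1 but not that fold. Their counts were too small, or their ratios too close to 2-fold, for a call. Among many unigenes, some intervals exclude 1 by counting error alone. How many of the 1041 and 1528 did so was not tested, so these are not counts of true differences. Among the 27264 unigenes with 10 to 99 reads in the pair, 71 were higher and 177 lower. Among the 10601 with 100 to 999 reads, 59 were higher and 107 lower, and among the 1317 with at least 1000 reads, 15 were higher and 24 lower. The share called lower was the larger one in each of these classes.

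**Figure D1:**
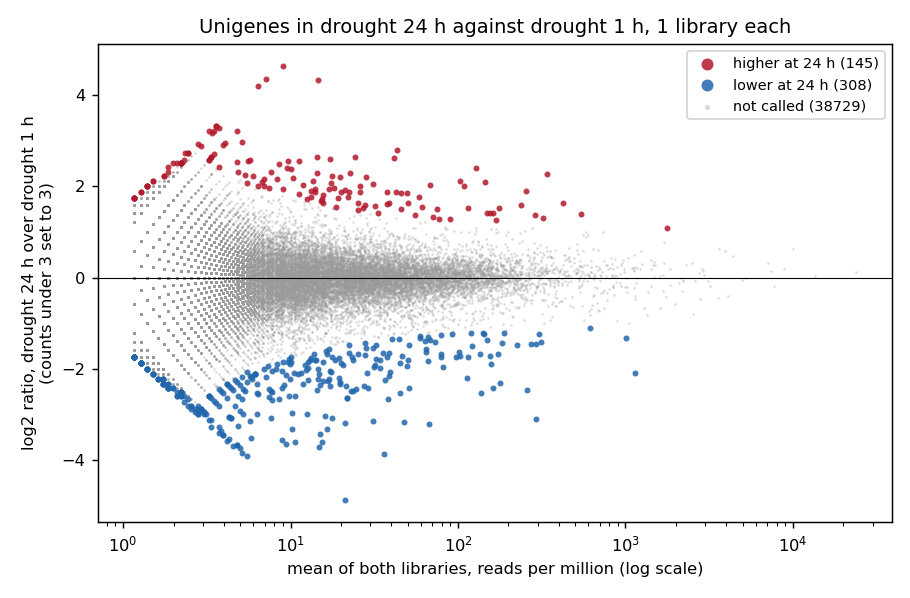
Log2 ratio of drought 24 h over drought 1 h (vertical axis, counts under 3 set to 3) against the mean of both libraries in CPM (horizontal axis, log scale) for the 39182 unigenes with 10 or more reads over both. Red points are the 145 higher and blue points the 308 lower unigenes; most grey points lie near 0 and spread out at low abundance.

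Most of the abundant transcripts differed little between the 2 times. Of the 100 unigenes with the most reads, which took 23.6% of the reads at 24 h, against 22.7% at 1 h, 87 had ratios within 1.5-fold of equality, 1 was higher and 2 were lower. Among unigenes with at least 1000 reads the middle 50% of log2 ratios ran from -0.17 to 0.22, with a median of 0.03. CL340.Contig2_All (5753 bases), the unigene with the most reads, stood at 4336 RPKM at 24 h, against 3978 RPKM at 1 h, a ratio of 1.09 (95% interval 1.08 to 1.10). Unigene8105_All (6720 bases) stood at 2051 RPKM at 24 h, against 1994 RPKM at 1 h, a ratio of 1.03 (1.02 to 1.04). RPKM is reads per kilobase of unigene per 1000000 assigned reads, which adjusts levels for unigene length. Only uniquely assigned reads are counted, so levels of contigs that share sequence and of single unigenes are not strictly comparable.

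Detection differed at the low end. At 24 h 3837 unigenes had reads that had none at 1 h, and 5012 had none at 24 h but reads at 1 h. The median count in each of these groups was 1 read, so most of them were at the limit of detection. Of the called unigenes, 19 higher ones had no read at 1 h and 54 lower ones had no read at 24 h. Unigenes not listed for a library count as 0 reads, which does not show that the transcript was absent. The floor of 3 counts, a chosen setting, is 0.698 CPM at 24 h and 0.697 CPM at 1 h. CPM is the count per 1000000 library reads.

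The higher unigenes with the firmest bounds, those whose intervals ended farthest from equality at their nearer end, were mostly scarce at 1 h. CL6604.Contig2_All (2548 bases) had 61 reads at 24 h, against 0 at 1 h. That is a difference of at least 16.1-fold by the exact interval, and 20.4-fold against a floor of 3 counts. It had 158 reads at 72 h of drought and 0 in the control, and 10 reads at 72 h of cold and 32 at 1 h of cold. The control and the first hour of drought were thus the 2 libraries without a read.

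CL566.Contig1_All (791 bases) had 55 reads at 24 h, against 0 at 1 h, at least 14.4-fold higher by the exact interval and 18.4-fold against the floor. It had 41 reads at 72 h of drought, 30 at 72 h of cold, 40 at 1 h of cold and 10 in the control. Here the drought 1 h library was the lowest of the 6. CL4549.Contig1_All (775 bases) had 28 reads at 24 h, against 0 at 1 h, at least 7.11-fold higher by the exact interval and 9.35-fold against the floor. Its reads covered 29.6% of its length at 24 h, and it had 11 reads both at 72 h of drought and in the control.

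Both contigs of the cluster CL1878 were higher at 24 h. CL1878.Contig1_All (925 bases) stood at 30.2 RPKM at 24 h, against 1.51 RPKM at 1 h, a ratio of 20.0 (8.94 to 55.7). Its level at 72 h of drought was 1.16 RPKM, against 12.0 RPKM in the control. CL1878.Contig2_All (1081 bases) stood at 16.1 RPKM at 24 h, against 0.645 RPKM at 1 h, a ratio of 25.0 (8.24 to 124), from 75 reads at 24 h, against 3 at 1 h. At 72 h of drought it was at 10.8 RPKM, against 6.14 RPKM in the control. The contigs parted at 72 h, where one stayed near its 24 h level and the other did not.

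Unigene45894_All (649 bases) was a single-time peak in the drought series, with 5.93 RPKM in the control and 16.8, 117 and 19.6 RPKM at 1, 24 and 72 h. Its ratio of 24 h over 1 h was 6.95 (5.10 to 9.64). Unigene984_All (1798 bases) had a like course, with 20.1 RPKM in the control and 65.1, 314 and 52.7 RPKM at 1, 24 and 72 h of drought. Its ratio was 4.82 (4.38 to 5.32), on 2427 reads at 24 h, against 504 at 1 h. In cold these 2 unigenes stayed at or below 39.3 RPKM, and both lay at their highest at 24 h of drought.

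Unigene984_All is also among the 3 higher unigenes with the largest difference in CPM, at 447 CPM, and the other 2 were more abundant, with smaller ratios. CL6044.Contig2_All (1800 bases) was at 1329 RPKM at 24 h, against 625 RPKM at 1 h, a ratio of 2.13 (2.06 to 2.20). The difference was 1268 CPM, the largest among the called unigenes that were higher. Its level in the control was 379 RPKM and at 72 h of drought 907 RPKM. Unigene1350_All (911 bases) was at 858 RPKM at 24 h, against 325 RPKM at 1 h, a ratio of 2.64 (2.47 to 2.82), and at 672 RPKM at 72 h of drought, against 156 RPKM in the control. From low to high, the order of the drought series in both was control, 1 h, 72 h and 24 h.

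Among the lower unigenes, Unigene23203_All (961 bases) had the firmest bound. It stood at 1.45 RPKM at 24 h, against 42.8 RPKM at 1 h, from 6 reads, against 177 at 1 h, a fall of 29.5-fold (13.3 to 81.4). Drought at 72 h gave 3.36 RPKM and the control 28.3 RPKM, while cold gave 10.2 RPKM at 72 h, against 7.84 RPKM at 1 h. Control and first hour were thus the 2 high libraries. CL1288.Contig1_All (1249 bases) had the same 2 high libraries in the drought series, with 67.0 RPKM in the control and 54.5, 3.72 and 9.49 RPKM at 1, 24 and 72 h. It was 14.6-fold lower at 24 h than at 1 h (9.30 to 24.3).

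Unigene3635_All (580 bases) had 0 reads at 24 h, against 39 at 1 h, at least 10.1-fold lower by the exact interval and 13.0-fold against the floor. It had 0 reads at 72 h of drought too, and 39 in the control. Unigene41196_All (212 bases) had 0 reads at 24 h, against 32 at 1 h, at least 8.17-fold lower by the exact interval and 10.7-fold against the floor. It had 1 read at 72 h of drought and 14 in the control, and 29 reads at 72 h of cold and 5 at 1 h. CL4569.Contig2_All (733 bases) had 0 reads at 24 h, against 36 at 1 h, at least 9.26-fold lower by the exact interval and 12.0-fold against the floor. Its 37 reads at 72 h of drought set it apart from the other 2, and its reads at 1 h covered 13.0% of its length.

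Unigene494_All (1159 bases) was highest at 1 h. It stood at 137 RPKM in the control and at 453, 53.2 and 50.2 RPKM at 1, 24 and 72 h of drought. Cold gave 42.1 RPKM at 72 h, against 50.7 RPKM at 1 h. It was 8.52-fold lower at 24 h than at 1 h (7.50 to 9.72), on 265 reads, against 2262 at 1 h. Unigene36531_All (676 bases) also peaked at 1 h, with 89.3 RPKM in the control and 354, 108 and 165 RPKM at 1, 24 and 72 h, and was 3.26-fold lower at 24 h than at 1 h (2.87 to 3.71).

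Among called unigenes the largest difference in CPM was a fall. CL1491.Contig1_All (2540 bases) was at 170 RPKM at 24 h, against 723 RPKM at 1 h, 4.25-fold lower (4.04 to 4.47), so that it fell by 1404 CPM. The control held 2423 RPKM and the 72 h drought library 646 RPKM, so the 24 h library was the lowest of the drought series. Its reads covered 53.7% of its length at 24 h and 53.8% at 1 h. CL4639.Contig1_All (4716 bases) was at 122 RPKM at 24 h, against 308 RPKM at 1 h, 2.52-fold lower (2.40 to 2.64). CL4654.Contig1_All (860 bases) was at 456 RPKM at 24 h, against 973 RPKM at 1 h, 2.13-fold lower (2.01 to 2.26), and was no longer called under TMM or upper-quartile factors. These last 2 unigenes were again as low at 72 h of drought, with 99.7 RPKM and 443 RPKM.

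**Figure D2:**
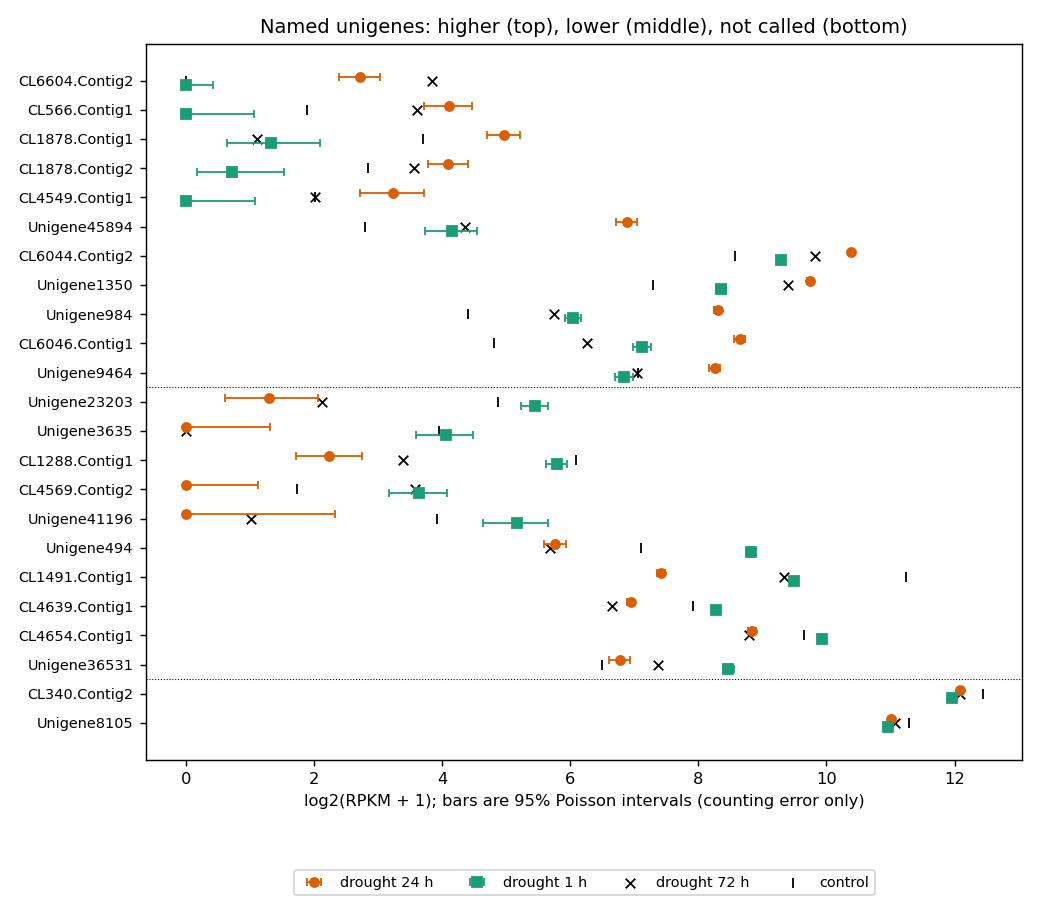
Levels of the 23 named unigenes as log2(RPKM + 1) on the horizontal axis, at drought 24 h (circles) and drought 1 h (squares) with 95% Poisson intervals for counting error, and at drought 72 h (crosses) and in the control (bars). The 11 unigenes at the top are higher at 24 h, the 10 in the middle are lower, and the 2 at the bottom were not called.

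The called unigenes were then followed in the 4 libraries that did not choose them. The 145 higher unigenes had a median of 7.02 RPKM in the control, then 8.49, 33.4 and 13.5 RPKM at 1, 24 and 72 h of drought. In cold the median was 5.18 RPKM at 72 h, against 9.32 RPKM at 1 h. The 308 lower unigenes had a median of 13.9 RPKM in the control and 21.8, 3.74 and 6.09 RPKM at 1, 24 and 72 h of drought. In cold the median was 12.0 RPKM at 72 h, against 8.31 RPKM at 1 h. Over all 39182 unigenes with enough reads the medians lay between 9.49 and 10.1 RPKM without cold 72 h, which was at 7.60 RPKM.

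**Figure D3:**
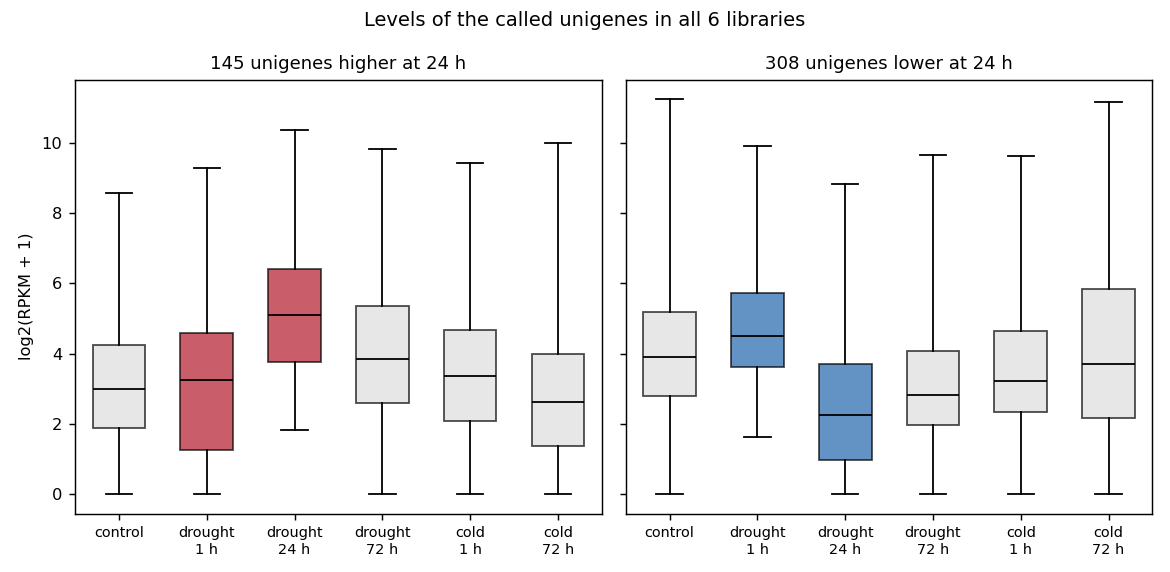
Levels of the 145 higher (left) and 308 lower (right) unigenes as log2(RPKM + 1) in the 6 libraries. Boxes hold the middle 50% of unigenes with the median as a line, and whiskers run from the lowest to the highest; coloured boxes are the 2 libraries that chose the unigenes.

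At 107 of the 145 higher and 188 of the 308 lower unigenes the level at 72 h of drought was between or equal to those at 24 h and 1 h, on a log scale with counts under 3 set to 3. Among unigenes with enough reads that were not called the share was 35.9%, and the called ones were chosen for a wide gap, which leaves more room between. The 72 h library was nearer to 24 h than to 1 h at 78 of the higher (53.8%) and at 231 of the lower unigenes (75.0%). Among those not called, it was nearer to 24 h at 52.5%. Unigenes that were lower at 24 h thus mostly stood nearer to that level than to 1 h at 72 h as well, while the higher ones were divided. Cold 1 h was also nearer to 24 h at 60.7% of the lower unigenes, against 49.3% of those not called. It was between or equal at 76.9% of the lower unigenes, against 33.5% of those not called. A placing of the lower ones nearer to 24 h was thus seen in cold 1 h too, at a smaller share than in drought 72 h.

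The control stood on the side of 1 h more often in both lists. It was nearer to 1 h than to 24 h at 123 of the 145 higher (84.8%) and at 216 of the 308 lower unigenes (70.1%), against 56.4% of those not called. Among the higher unigenes the cold libraries did so about as often, at 80.7% for cold 1 h and 84.1% for cold 72 h. Among the lower ones these shares were 39.3% and 55.2%. Among those not called they were 50.7% and 53.8%, so the 55.2% lay near the share of those not called. The control level was within 2-fold of 1 h, and not of 24 h, at 86 higher and 172 lower unigenes. In 35 of these 86 and in 108 of these 172, drought 72 h was within 2-fold of 24 h only. The opposite placing, with the control within 2-fold of 24 h only, held for 15 higher and 73 lower unigenes. Drought 72 h was within 2-fold of 24 h only at 11 of these 15 and 54 of these 73, as in Unigene36531_All, and within 2-fold of 1 h only at 1 and 9. These placings, and those of drought 72 h above, are measured to the 2 libraries that chose the unigenes and are descriptions. Unigenes not called have a smaller gap between these libraries and are no equal baseline. No share over other unigenes is given for the 2-fold counts.

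Seen over all 6 libraries, drought 24 h was the highest at 126 of the 145 higher unigenes and the lowest at 165 of the 308 lower ones. Drought 1 h was the lowest at 37 of the higher and the highest at 165 of the lower ones. Among unigenes not called, drought 24 h was the highest at 18.8% and the lowest at 11.2%, and drought 1 h the highest at 16.2% and the lowest at 8.41%. These positions use the 2 libraries that chose the unigenes and are descriptions.

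The 4 comparisons drought 72 h, cold 1 h and cold 72 h against the control, and cold 72 h against cold 1 h, hold neither drought library of this pair, so the called unigenes were counted there by the same rule. The first 3 share the control with each other. In drought 72 h against the control, 43 of the 131 higher unigenes with enough reads were higher (32.8%) and 2 lower. Over all unigenes with enough reads to be called in that comparison, 0.628% were higher and 0.750% lower. Of the 286 lower unigenes with enough reads, 81 were lower (28.3%) and 9 higher. The median log2 ratio was 1.26 for the higher and -1.15 for the lower unigenes, against 0.01 over all with enough reads.

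In cold 1 h against the control, 39 of 284 lower unigenes were lower (13.7%) and 0 higher, where 0.337% of all with enough reads were lower and 0.510% higher. Under TMM factors these shares over all were 0.399% and 0.401%. Of 127 higher unigenes, 11 were higher and 5 lower. The median log2 ratio was 0.67 for the higher and -0.56 for the lower unigenes, against 0.05 over all. Unigene494_All and Unigene23203_All are among the 39. The called unigenes are more abundant than most, with a median of 108 reads in the pair for the higher, 68.5 for the lower and 43 for all with at least 10 reads, and abundant unigenes are called more easily. With at least 100 reads in the 2 libraries of cold 1 h and the control, 27 of 126 lower unigenes were lower (21.4%), against 0.595% of all.

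Cold 72 h gave a mixed picture. Against the control, 64 of 281 lower unigenes were higher and 51 lower, and 19 of 119 higher unigenes were higher and 19 lower. Over all unigenes with enough reads 4.74% were higher and 4.51% lower, and under TMM factors 6.24% and 2.60%. Under TMM factors the 64 and 51 became 71 and 36, and the 19 higher and 19 lower became 23 and 11. The balance thus depends on the scaling both in the lists and over all. In CL4639.Contig1_All the cold 72 h level of 1272 RPKM was above the control's 240 RPKM. In CL1491.Contig1_All it was below it, at 181 RPKM against 2423 RPKM.

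The later and the earlier library of cold, 72 h and 1 h, gave another step in time. At 83 of 272 unigenes lower in drought 24 h than 1 h, cold 72 h was higher than cold 1 h, and at 23 it was lower. At 27 of 121 higher unigenes cold 72 h was lower, and at 12 it was higher. Over all unigenes with enough reads 4.55% were higher and 4.58% lower, and under TMM factors 6.23% and 2.31%. The median log2 ratio was 0.63 for the unigenes lower in drought and -0.81 for the higher ones, against -0.35 over all. The median over all became 0.02 under TMM factors. The 83 and 23 then became 95 and 11, and the 27 and 12 became 20 and 16, so the balance among the higher unigenes depends on the scaling. With at least 100 reads in the 2 cold libraries, 71 of 131 unigenes lower in drought were higher and 7 lower. Of 47 unigenes higher in drought, 12 were lower and 10 higher. Over all with at least 100 reads, 7.77% were higher and 4.65% lower. The later times are 24 h in drought and 72 h in cold, so the steps are not of equal length.

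Unigenes with the most reads show each pairing of directions. Unigene9464_All (773 bases) was higher in both steps, with 304 RPKM at 24 h, against 114 RPKM at 1 h of drought, a ratio of 2.68 (2.38 to 3.02), and 1020.1 RPKM at 72 h and 165 RPKM at 1 h of cold. CL6046.Contig1_All (657 bases) was also higher in both, at 399 RPKM against 138 RPKM in drought, a ratio of 2.88 (2.57 to 3.24), and at 146 RPKM against 39.5 RPKM in cold. Unigene36531_All and CL1491.Contig1_All were lower in both steps, with 23.0 RPKM against 71.2 RPKM and 181 RPKM against 798 RPKM in cold. CL4639.Contig1_All and CL4654.Contig1_All were lower in drought and higher in cold, CL6044.Contig2_All and Unigene1350_All the reverse.

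**Figure D4:**
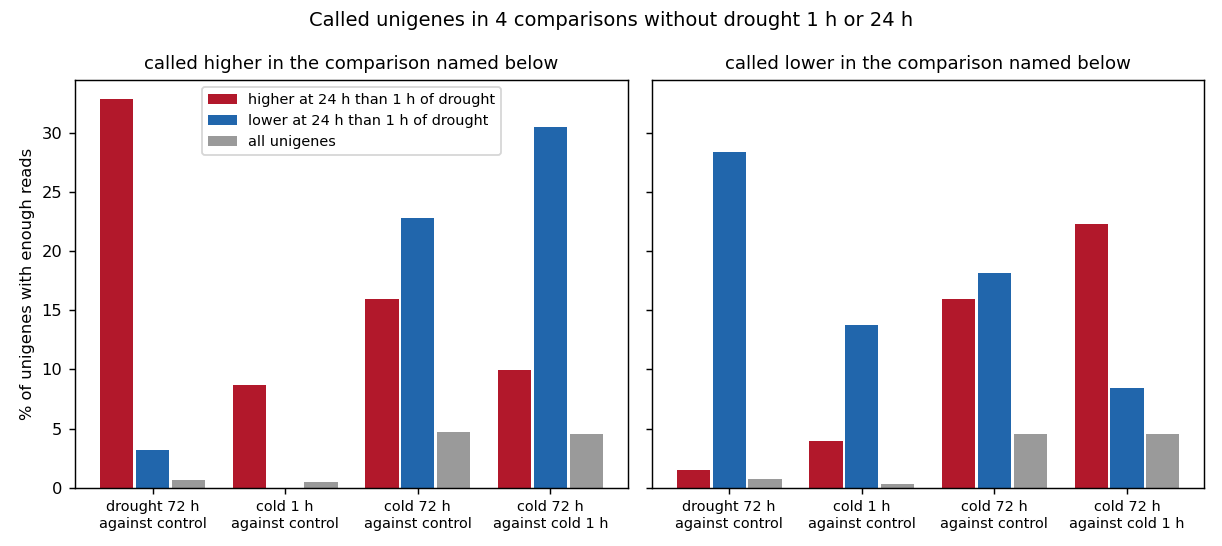
Share of unigenes with enough reads called higher (left) or lower (right) in 4 comparisons that hold neither drought 1 h nor drought 24 h. Red and blue bars are the unigenes higher and lower at 24 h than at 1 h of drought, and grey bars are all unigenes; in drought 72 h against the control 43 of 131 higher and 81 of 286 lower unigenes were called the same way.

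Contigs of a cluster are assembled copies or forms that share sequence, and reads that match several of them are not uniquely assigned. Cluster identifiers were carried by 33.1% of the higher and 28.6% of the lower unigenes, against 28.2% of all with at least 10 reads. With the reads of all contigs of a cluster summed, 121 clusters or single unigenes were higher and 275 lower. Of the 43 higher unigenes in clusters of at least 2 listed contigs, 20 kept their call in the sum, and of the 86 lower ones 53 did. No cluster had contigs called in opposite directions, and 11 clusters had 2 or more called contigs, 4 higher and 7 lower.

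In CL592, 1 of the 7 lower clusters, 3 contigs were called together. CL592.Contig3_All (735 bases) had 143 reads at 24 h, against 560 at 1 h, CL592.Contig1_All (490 bases) had 9 at 24 h, against 45 at 1 h, and CL592.Contig2_All (206 bases) had 0, against 10 at 1 h. The sum was 4.04-fold lower at 24 h (3.38 to 4.86). In CL899 both contigs were higher at 24 h. CL899.Contig1_All (1489 bases) had 435 reads at 24 h, against 174 at 1 h, and CL899.Contig2_All (1198 bases) had 62, against 11 at 1 h. These 2 clusters were chosen after their values were seen.

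At 6 higher and 7 lower contigs, another contig of the cluster had an interval wholly on the other side of equality. These intervals need only exclude 1, and some can do so by counting error alone. No share over other contigs is given, so the 6 and 7 are descriptions. CL6604.Contig2_All is one of the 6, beside CL6604.Contig1_All (428 bases) with 3 reads at 24 h, against 12 at 1 h. The interval of CL6604.Contig1_All ended at 0.928, close to equality. CL6604.Contig3_All (1591 bases) had 383 reads at 24 h, against 275 at 1 h, and the sum of the 3 contigs was 1.56-fold higher (1.34 to 1.82), which is not called. CL4569.Contig2_All, with 0 reads, against 36 at 1 h, stands beside CL4569.Contig1_All (1077 bases), with 293 reads at 24 h, against 196 at 1 h. The sum there was 1.26-fold higher (1.06 to 1.51), so the direction turned.

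CL3276, CL4390 and CL1467 are further clusters of this kind, chosen after their values were seen. CL3276.Contig2_All (450 bases) had 389 reads at 24 h, against 134 at 1 h, while CL3276.Contig1_All (1294 bases) had 593, against 1015 at 1 h. CL4390.Contig2_All (3025 bases) had 122 reads at 24 h, against 29 at 1 h, while CL4390.Contig1_All (2980 bases) had 158, against 290 at 1 h. CL1467.Contig1_All (587 bases) had 37 reads at 24 h, against 4 at 1 h, while CL1467.Contig2_All (591 bases) had 32, against 62 at 1 h. In each the contigs lay on opposite sides of equality, and the sums of 24 h over 1 h were 0.856 (0.785 to 0.933), 0.879 (0.746 to 1.04) and 1.05 (0.736 to 1.49).

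**Figure D5:**
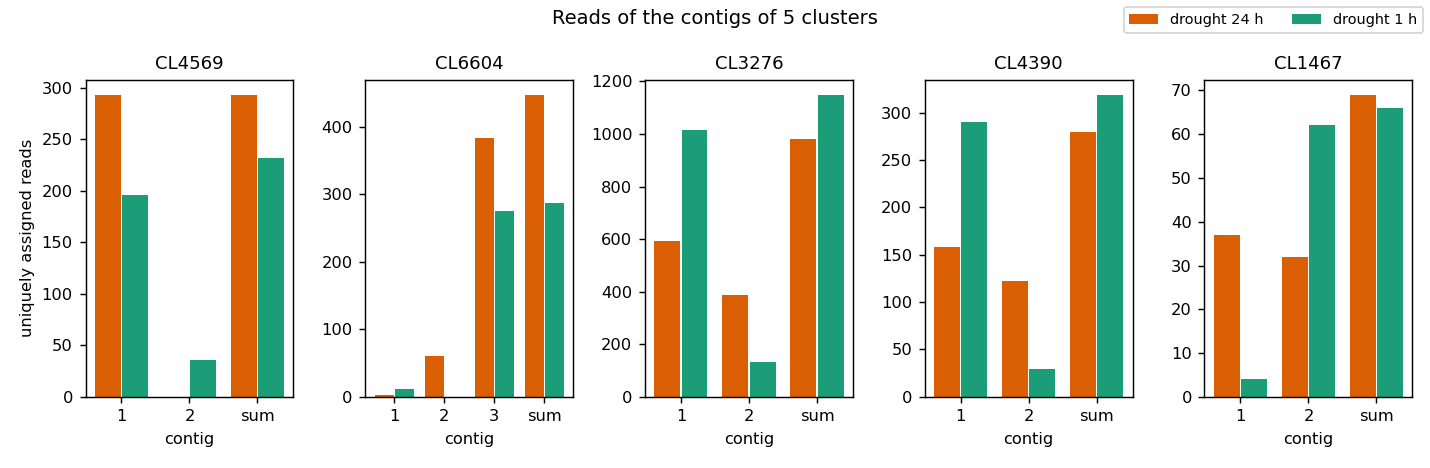
Uniquely assigned reads of each contig and of their sum in 5 clusters, at drought 24 h (orange) and drought 1 h (green). Vertical axes start at 0 and differ between clusters; in each, one contig is higher and another lower at 24 h, as with 389 and 593 reads at 24 h in CL3276 against 134 and 1015 at 1 h.

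Called unigenes had a slightly higher median length than all unigenes with at least 10 reads. Lengths were not compared at equal reads, and unigenes with more reads are called more easily. The median length was 632 bases for the higher and 688 bases for the lower unigenes, against 564 bases for all with at least 10 reads. In the library where they were higher, the reads covered a median of 82.5% of the length of the higher and 86.3% of that of the lower unigenes. Coverage was under 50% at 34 higher and 30 lower unigenes, for which RPKM averages over bases without reads.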

How the data were processed

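Leaf RNA was sequenced from 1 TruSeq library per treatment and time, per the labels. For each, the authors deposited, per the file headers, each unigene's count of uniquely assigned reads, the percent of its length covered and its RPKM. The submitters' processing notes name Bowtie 0.12.2. The sources used here do not give the assembly or the use of strand. Counts summed to each header's total, and the deposited RPKM equalled counts per kilobase per 1000000 reads within a relative 8.68e-09. Unigenes missing from a table were taken as 0 reads. Here, ratios of counts over totals were given exact 95% intervals (Clopper-Pearson, conditional on the sum, scipy 1.17.1) and called beyond 2-fold. The rule was tested on simulated counts that held counting error only, so that test could not cover spread between plants or libraries. Fits with 1 library a side have no replicate error, so edgeR and DESeq2 gave scaling factors only.

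Unigenes were named by 5 rules: the 6 firmest bounds and the 3 largest differences in CPM in each direction, the 2 with the most reads among those with 0 reads in one library, the 2 with the most reads for each pairing with cold 72 h against cold 1 h, and the 2 most abundant uncalled ones. A sixth rule, for clusters with contigs called in opposite directions, found none. The comparison, lists and rules were chosen with earlier results of these data known. Alternatives were scaling by median of ratios (DESeq2 1.42.0), TMM or upper quartile (edgeR 4.0.16), a read minimum, other intervals and bounds, an assumed spread between plants, RPKM + 1, a length minimum and cluster sums. A coverage minimum, and these factors in the other comparisons, were added after seeing the data. Python 3.11.15, numpy 2.4.6, pandas 2.3.3, matplotlib 3.10.9 and R 4.3.3 were used.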

Additional observations from a re-analysis of the deposited data

Results flagged for a closer look

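The step from 1 h to the later library went opposite ways in drought and cold at 2 groups of unigenes. At 83 unigenes drought 24 h was lower than drought 1 h and cold 72 h higher than cold 1 h, and at 27 unigenes the reverse held. These are 83 of 272 lower and 27 of 121 higher unigenes with enough reads, and at 23 and 12 others the 2 steps went the same way. Over all unigenes with enough reads, cold 72 h was higher than cold 1 h at 4.55% and lower at 4.58%, or 6.23% and 2.31% under TMM factors. Under TMM factors the 83 and 23 became 95 and 11, and the 27 and 12 became 20 and 16, so the second group depends on the scaling. These differences were not tested, because each side is 1 library, the later times differ, and cold 72 h is the library least like the others. Of the named unigenes, CL4639.Contig1_All had a ratio of cold 72 h over cold 1 h of 10.1 and CL4654.Contig1_All one of 2.34, while both were lower at 24 h than at 1 h of drought. CL6044.Contig2_All and Unigene1350_All had ratios of 0.465 and 0.377 in cold, while both were higher at 24 h than at 1 h of drought.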

How the results depend on the processing

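The excess of lower over higher unigenes was present under every alternative run. Higher and lower unigenes numbered 61 and 123 with an interval that left out 0.1% in place of 5%, 1186 and 1836 where the interval excluded 1 and the fold reached 2, and 14 and 50 with an interval beyond 4-fold. They numbered 50 and 124 when plants were assumed to vary by a coefficient of 0.2 and 12 and 42 by 0.4, 1740 and 2508 on 2-fold in RPKM + 1 with a level of 5 RPKM or more in one library, and 81 and 193 among unigenes of at least 500 bases. A stricter rule or fewer unigenes leaves fewer calls by construction. An interval that need only exclude 1 can also admit unchanged unigenes by counting error. TMM, upper-quartile and median-of-ratios factors, at least 10 reads and coverage of at least 50% of the length stayed within 1.5 times of the 145 and 308. Cluster sums gave 51 higher and 110 lower with the wider interval, against 121 and 275. Of the named unigenes that were called, CL4654.Contig1_All alone lost its call under TMM and upper-quartile factors, being lower at ratios of 0.483 and 0.484, not called. Summed over its cluster, CL4569.Contig2_All turned to a ratio of 1.26, and CL6604.Contig2_All was at 1.56, not called. Of 48 counts in the other comparisons under 3 scalings, 45 stayed within 1.5 times. At 10 to 99 reads only large differences can be called. No paired analysis was possible because each group is 1 library, and for the same reason no library could be left out.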
